A study of Mus musculus with 21 samples.

Results

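The nuclear-encoded subunits and assembly factors of mitochondrial complex I were described in the midbrain of mice given MPTP and irisin. The members were all genes with a symbol that starts with Nduf followed by a, b, c, s, v or af, pseudogenes marked "-ps" left out, that both deposited tables hold. There were 49 such genes among the 33829 genes tabulated for the pre-treatment experiment and the 55385 tabulated for the delayed treatment experiment, and 48 of them had enough reads to be tested in each. Ndufa11b, a copy of Ndufa11, was not tested, with 0 to 4 reads in each mouse. Ndufb1 was in the tables only as Ndufb1-ps and is not a member. RNA from the midbrain of 21 male C57BL/6 mice, 6 weeks old by the labels, was sequenced in 7 groups of 3, and all agents were injected intraperitoneally. In the pre-treatment experiment, control mice had ddH2O for 10 days, MPTP treated mice had ddH2O for 5 days and then MPTP at 30 mg/kg per day for 5 days, and irisin-MPTP mice had irisin at 200 μg/kg per day for 5 days before the same MPTP course. In the delayed treatment experiment, control mice had ddH2O for 10 days, mice on irisin alone had ddH2O for 5 days and then irisin for 5 days, MPTP treated mice had MPTP for 5 days and then ddH2O for 5 days, and MPTP-irisin mice had MPTP for 5 days and then irisin for 5 days. Doses were the same in both experiments.

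Complex I (NADH:ubiquinone oxidoreductase) takes electrons from NADH at the tip of its matrix arm, passes them along iron-sulfur clusters to ubiquinone, and moves protons across the inner mitochondrial membrane with its membrane arm. Its core subunits are encoded partly in the nucleus and partly by the mitochondrial mt-Nd genes, and many accessory subunits and assembly factors are nuclear. MPTP is turned into MPP+, which enters dopaminergic neurons through the dopamine transporter and blocks complex I, so the complex is the direct target of the toxin used here. Irisin is a peptide released from the muscle protein FNDC5 and is linked to exercise and to mitochondrial biogenesis.

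The libraries held 66.7 to 75.6 M reads on genes in the pre-treatment experiment and 48.8 to 77.2 M in the delayed treatment experiment, and members took 0.331 to 0.370% and 0.335 to 0.401% of them. All 10 markers of dopaminergic neurons were found, so the labelled midbrain tissue held the cells that MPTP targets. Their summed FPKM (fragments per kilobase of gene per M reads) was 154 ± 33.1 (SD, n = 3, as for all group means here) in control, 145 ± 37.1 in MPTP treated and 121 ± 12.6 in irisin-MPTP mice of the pre-treatment experiment. Of these markers, Slc6a3 had 51.3 to 65.5 counts per M reads in MPTP treated and 25.7 to 37.2 in irisin-MPTP mice, without overlap. Th had 31.5 to 51.6 and 21.3 to 34.8 in the same order, with overlap. In the delayed treatment experiment the sum was 158 ± 5.03 in control mice, 143 ± 1.12 on irisin alone, 121 ± 16.4 in MPTP treated mice and 109 ± 8.66 in MPTP-irisin mice. In bulk tissue, fewer cells of a type and less RNA per cell cannot be told apart. The summed FPKM of 4 choroid plexus markers ran from 2.78 to 1183 between mice, and that of 5 blood cell markers was 272 to 548 in irisin-MPTP mice, below the 650 to 981 of MPTP treated and the 636 to 960 of control mice of the same experiment. In the delayed treatment experiment the summed FPKM of 6 neuron markers was 1130 to 1150 in control mice. It was lower without overlap on irisin alone (1049 to 1098), in MPTP treated (1059 to 1120) and in MPTP-irisin mice (1021 to 1101). On irisin alone, markers of astrocytes (190 to 204, control 211 to 256) and striatal neurons were also lower without overlap. Oligodendrocyte, microglia and endothelial cell markers overlapped control mice there. The part of these differences in the values below was not tested. The labels number replicates and do not say that each is a separate animal, so p-values measure the spread between these samples.

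The members were among the well expressed genes of the midbrain. The median member had 29.3 FPKM in control mice of the pre-treatment experiment and 35.0 FPKM in those of the delayed treatment experiment, where the median tested gene had 2.09 and 2.15 FPKM, so that 94.1% and 94.6% of tested genes lay below the median member. Of the 49 members, 38 and 39 had a control mean over 10 FPKM and 48 in each experiment had one over 1 FPKM. The 2 highest were Ndufb9, an accessory subunit far out on the membrane arm, at 113 ± 6.88 and 117 ± 6.09 FPKM, and Ndufa8, a membrane arm subunit on the intermembrane space side, at 107 ± 7.45 and 126 ± 11.4 FPKM. These 2 changed order between experiments and their SDs overlapped in each.

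The median levels per length differed between the roles of the members, while the ranges of the subunit roles overlapped widely (plot of FPKM in control mice), and the roles were not tested against each other. The 9 accessory subunits of the membrane arm that sit near the matrix arm had the highest median, 78.0 FPKM in control mice of the pre-treatment experiment, and the 10 subunits of the far membrane arm had 43.0 FPKM. The 9 accessory subunits of the matrix arm had a median of 35.4 FPKM, and the 7 nuclear core subunits, which carry the flavin and the iron-sulfur clusters, 33.2 FPKM. Among the core subunits, Ndufv2, beside the NADH site, was at 90.9 ± 5.45 FPKM. Ndufs1, the largest core subunit, was at 23.4 ± 1.95 FPKM and Ndufs7, next to ubiquinone, at 22.9 ± 2.12 FPKM. The 8 assembly factors, which help to build the complex and are not part of it, had a median of 9.0 FPKM and reached at most 20.8 FPKM, for Ndufaf5. The order of the 5 role medians was the same in control mice of the delayed treatment experiment. The FPKM of Ndufb2, Ndufb5, Ndufb7, Ndufab1 and Ndufs1 rest on implied gene lengths of 6349, 5633, 5099, 7768 and 9118 bases, and would be higher with shorter ones. The implied length of Ndufv2 was 2421 bases. In counts per M reads, without length, Ndufs1 was at 214 ± 20.8, near Ndufv2 at 221 ± 15.1, in control mice of the pre-treatment experiment. Ndufs7 was at 44.6 ± 3.38 in the same mice.

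**Figure D1:**
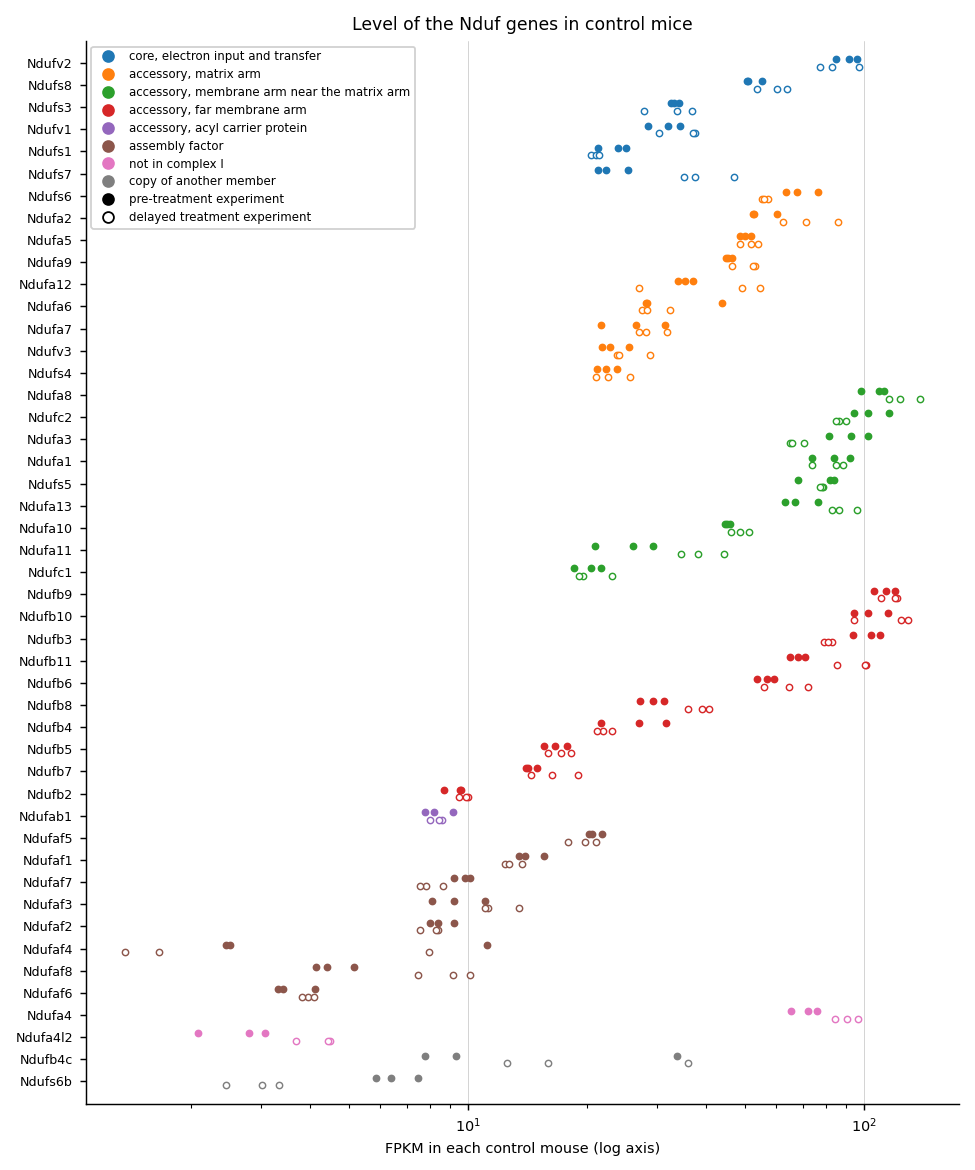
FPKM of the tested members described here in each control mouse, on a log axis, with a row per gene and a colour per role; filled points are mice of the pre-treatment experiment and open points those of the delayed treatment experiment. Ndufb9 and Ndufa8 have control means of 113 and 107 FPKM in the pre-treatment experiment, and control means of the assembly factors run from 3.61 to 20.8 FPKM.

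Apart from Ndufa11b, which was at 0 FPKM in every control mouse of the pre-treatment experiment and at a mean of 0.0475 FPKM in those of the delayed treatment experiment, the 2 lowest members differed between experiments. Ndufa4l2, a relative of Ndufa4 that is not a subunit of complex I, was at 2.65 ± 0.510 and 4.20 ± 0.447 FPKM. The assembly factor Ndufaf6 was at 3.61 ± 0.435 and 3.95 ± 0.141 FPKM, and Ndufs6b, a copy of the matrix arm subunit gene Ndufs6, at 6.58 ± 0.827 and 2.93 ± 0.452 FPKM. Ndufaf4, another assembly factor, had 5.38 ± 5.01 and 3.67 ± 3.75 FPKM, with SDs as wide as its means. Ndufa4, named with the complex I subunits and now counted as a subunit of complex IV, was at 71.0 ± 5.39 and 90.4 ± 5.79 FPKM.

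A promoter was found in RefSeq (GRCm38.p6) for 40 of the 49 members and for 13885 tested genes, and the 250 bases before the start were searched on both strands for the letters of factors known for nuclear mitochondrial genes. The NRF1 motif, whose letters appear in capitals in the first 3 sequences printed below, was in 7 of the 40 promoters (17.5%, where 6.81% of all promoters held it) and the ETS letters CCGGAAG in 5 (12.5%, against 11.6%). The YY1 letters AAGATGG were in 0 of 40, against 4.24% of all promoters. The Sp1 letters GGGCGG were in 47.5% against 53.7%, the CCAAT letters in 35% against 35.7% and the TATAAA letters in 10% against 7.40%. These are matches of letters in a window that leaves out the bases after the start, and they show no binding. The 100 bases before the start are printed for the 3 members with the NRF1 letters and the 1 with the ETS letters in that stretch, and for Ndufb5, the member with the smallest adjusted p, and Ndufaf4, the member with the widest step between mice. Each is given on the strand of its gene, with NRF1 or ETS letters in capitals:
Ndufa11, chr17:56717662-56717761, plus strand: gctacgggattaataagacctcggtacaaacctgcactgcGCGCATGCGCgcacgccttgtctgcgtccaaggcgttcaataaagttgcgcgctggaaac
Ndufs5, chr4:123718187-123718286, minus strand: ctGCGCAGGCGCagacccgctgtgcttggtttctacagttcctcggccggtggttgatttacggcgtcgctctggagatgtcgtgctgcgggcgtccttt
Ndufs6, chr13:73328483-73328582, minus strand: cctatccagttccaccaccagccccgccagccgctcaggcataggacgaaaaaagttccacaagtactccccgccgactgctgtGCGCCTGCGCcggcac
Ndufaf1, chr2:119662835-119662934, minus strand: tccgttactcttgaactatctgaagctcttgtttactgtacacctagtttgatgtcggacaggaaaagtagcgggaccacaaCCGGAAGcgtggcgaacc
Ndufb5, chr3:32736890-32736989, plus strand: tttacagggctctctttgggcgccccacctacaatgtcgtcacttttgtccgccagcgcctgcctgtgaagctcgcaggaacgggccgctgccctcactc
Ndufaf4, chr4:24897983-24898082, plus strand: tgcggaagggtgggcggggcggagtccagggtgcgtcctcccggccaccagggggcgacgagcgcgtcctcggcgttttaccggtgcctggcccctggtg

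The members lie on 17 chromosomes, 2 of them on X. Of the 48 tested members, 21 (43.75%) start within 1000 bases of a gene start on the opposite strand, as do 18.9% of all tested genes and 22.5% of those with a mean of at least 10 counts per M reads (CPM). Reads were counted without a stated use of strand, and 17 members overlap another tested gene, so that reads of such pairs may not have been told apart. One of them is Ndufb5, which shares 158 bases with Mrpl47 on the other strand.

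The comparison of MPTP treated with control mice of the pre-treatment experiment asks how the midbrain differed after the MPTP course, the last injections given there. The nuclear complex I genes were mostly a little lower in MPTP treated mice, with 43 of 48 below 0 on the log2 fold change scale, where 50.4% of all tested genes were. The median log2 fold change of the members was −0.08 (a median change of −5.67%), where that of all tested genes was near 0 and the median standard error of a member was 0.0791. No member passed an adjusted p of 0.05 in edgeR's quasi-likelihood test (0.0221% of all tested genes did), and 5 of 48 (10.4%) had an unadjusted p under 0.05, as did 6.03% of all tested genes. DESeq2 called 1 member, Ndufb5, with 0.343% of the genes it tested called, and 4 at an unadjusted p, and limma called 0 and 4.

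All 7 core subunits had lower means in MPTP treated mice. Ndufs3, part of the frame of the matrix arm, had 80.8, 81.9 and 82.9 CPM in control mice and 72.3, 75.2 and 71.3 CPM in MPTP treated mice. The groups did not overlap, and the log2 fold change was −0.17 ± 0.06 (SE) with an adjusted p of 0.818 (edgeR). Ndufs8, which holds iron-sulfur clusters on the path to ubiquinone, had 73.5, 76.2 and 79.2 CPM in control and 66.7, 68.1 and 70.4 CPM in MPTP treated mice, again without overlap, at −0.16 ± 0.07 (adjusted p = 0.823, edgeR). The other core subunits lay between −0.13 for Ndufv1, which binds the flavin and NADH, and −0.03 for Ndufs1.

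All 9 accessory subunits of the matrix arm, all 9 of the membrane arm near it and 9 of the 10 of the far membrane arm had lower means. Ndufb9 had 123, 136 and 137 CPM in control mice and 119, 113 and 117 CPM in MPTP treated mice, so that every MPTP treated mouse was below every control mouse. Its log2 fold change was −0.18 ± 0.06 with an adjusted p of 0.818 (edgeR). Ndufb10, with Ndufb5 a subunit of the far membrane arm, was at −0.22, and Ndufs5, on the intermembrane space side, at −0.25. The assembly factors had 6 of 8 lower, with a median of −0.05, and Ndufa4 was at −0.13 ± 0.07.

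Ndufb5 (ENSMUSG00000027673, chr3:32736990-32751566, plus strand) went the other way. It had 87.4, 96.0 and 98.8 CPM in control mice, 127, 126 and 118 CPM in MPTP treated mice, and 81.8, 91.2 and 90.2 CPM in irisin-MPTP mice. The 3 MPTP treated mice stood above all 6 others, which overlapped. The log2 fold change was 0.39 ± 0.07 (adjusted p = 0.362) for MPTP against control and −0.49 ± 0.07 (adjusted p = 0.0698) for irisin-MPTP against MPTP, both by edgeR, which share the MPTP treated mice. In DESeq2 the adjusted p-values were 0.00671 and 2.32e-05, and over all alternatives they ran from 0.00671 to 0.908 and from 2.32e-05 to 0.287. Mrpl47, which overlaps it and encodes a mitochondrial ribosomal protein, had 23.9 to 27.1 CPM in control and 23.4 to 26.5 CPM in MPTP treated mice.

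Ndufb5 in the delayed treatment experiment did not separate the groups in this way. The control mice had 103, 97.0 and 91.0 CPM, the mice on irisin alone 126, 86.1 and 99.2 CPM, the MPTP treated mice 129, 92.5 and 87.9 CPM and the MPTP-irisin mice 82.9, 86.7 and 88.8 CPM. A single mouse on irisin alone and a single MPTP treated mouse reached the level of the MPTP treated mice of the pre-treatment experiment. The log2 fold change for MPTP against control was 0.09 ± 0.15 (adjusted p = 0.935, edgeR). Levels of the experiments were not tested against each other.

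**Figure D2:**
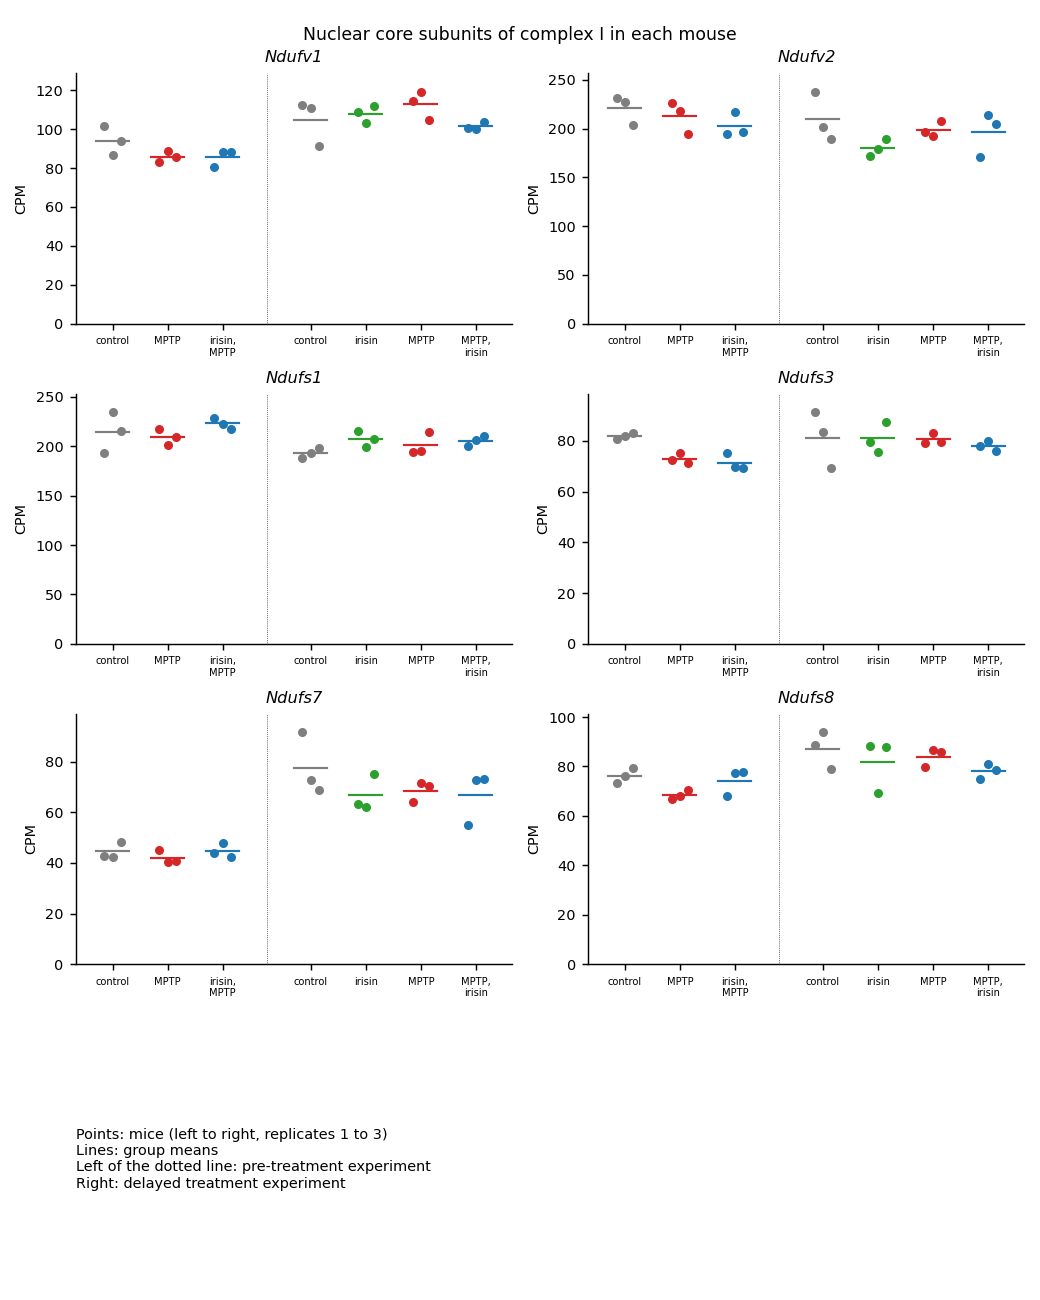
CPM of 6 nuclear core subunits in each mouse, with group means as lines and axes that start at 0; the pre-treatment experiment is left of the dotted line and the delayed treatment experiment right of it. Ndufs3 in MPTP treated and irisin-MPTP mice of the pre-treatment experiment, at 69.1 to 75.2 CPM, lies below the control mice at 80.8 to 82.9 CPM, and in the delayed treatment experiment the groups overlap.

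Irisin-MPTP and MPTP treated mice differed without overlap in blood cell markers and Slc6a3, and narrowly so in astrocyte and endothelial cell markers. Their comparison asks whether irisin given before MPTP altered the complex I genes. Their median log2 fold change was 0.00 (0.246%), with 23 of 48 members lower where 49.3% of all tested genes were. No member was called by edgeR (0.0707% of tested genes were), and 2 members (4.17%), Ndufb5 and Ndufs6b, had an unadjusted p under 0.05, where 6.22% of tested genes did. DESeq2 called 1, Ndufb5, with 0.707% of its tested genes called, and had 2 at an unadjusted p, and limma called 0 and had 2. The core subunits ran from −0.07 for Ndufv2 to 0.12 for Ndufs8, which had 67.8, 77.3 and 77.6 CPM in irisin-MPTP mice, overlapping the MPTP treated mice (adjusted p = 0.926, edgeR). Ndufs6b (ENSMUSG00000083820, chr7:81161397-81161744, minus strand) had 2.86, 3.02 and 2.53 CPM in MPTP treated and 2.08, 2.14 and 1.70 CPM in irisin-MPTP mice, without overlap, at −0.50 ± 0.18 (adjusted p = 0.676, edgeR). It is a short copy of Ndufs6 with 124 to 211 reads a mouse in this experiment, and the counting could have split reads between them.

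Against control mice, irisin-MPTP mice had a median log2 fold change of −0.10 (−6.64%), with 41 of 48 members lower where 49.2% of tested genes were. No member was called by edgeR, where 0.0707% of tested genes were, or by DESeq2 or limma. An unadjusted p under 0.05 was reached by 5 members (10.4%), all lower, in edgeR, where 7.12% of tested genes reached it, and by 4 in DESeq2 and 6 in limma. Ndufs3 had 75.2, 69.7 and 69.1 CPM in irisin-MPTP mice, all below the control mice, at −0.20 ± 0.06 (adjusted p = 0.524, edgeR). Ndufb9, with 121, 115 and 117 CPM, was also below every control mouse, at −0.16 ± 0.06 (adjusted p = 0.648, edgeR). Ndufa13, a membrane arm subunit also known as GRIM-19, had 88.4, 96.8 and 106 CPM in control and 81.5, 83.5 and 88.3 CPM in irisin-MPTP mice, at −0.20 ± 0.08 (adjusted p = 0.648, edgeR). All 10 subunits of the far membrane arm, 7 of 9 of the matrix arm and 7 of 8 assembly factors had lower means. Both comparisons with control mice share those mice.

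In the delayed treatment experiment, MPTP treated mice were sampled after 5 further days on ddH2O. Against control mice, 36 of 48 members were lower, where 50.3% of tested genes were, with a median log2 fold change of −0.07 (−4.91%) and a median standard error of 0.0975. The 3 tools, edgeR, DESeq2 and limma, called no member, with 0.132% of tested genes called by edgeR, and each gave 3 members with an unadjusted p under 0.05, which in edgeR were 6.25% of members, where 8.33% of tested genes did. Without control mouse 1 the median was −0.03.

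The core subunits split in this comparison, with 4 lower and 3 higher, from −0.18 for Ndufs7 to 0.11 for Ndufv1. Ndufs7 had 91.6, 72.7 and 68.7 CPM in control and 63.9, 71.6 and 70.4 CPM in MPTP treated mice, with overlap, and control mouse 1 was the highest. Ndufv1 had 112, 111 and 91.1 CPM in control and 114, 119 and 105 CPM in MPTP treated mice, with overlap. Ndufs3, without overlap in the pre-treatment experiment, had 91.3, 83.3 and 69.1 CPM against 79.2, 83.1 and 79.3 CPM here, at −0.01 ± 0.09. Ndufs1 was at 0.06.

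Ndufa8 gave the smallest p among the members of this comparison. It had 135, 120 and 114 CPM in control and 101, 112 and 104 CPM in MPTP treated mice, without overlap, at −0.22 ± 0.08 (adjusted p = 0.481, edgeR). Ndufa13 had 137, 123 and 118 CPM against 108, 107 and 117 CPM, also without overlap, at −0.19 ± 0.07 (adjusted p = 0.528, edgeR). Ndufa9, a matrix arm subunit near ubiquinone, was higher, with 127, 125 and 111 CPM against 136, 135 and 131 CPM, at 0.15 ± 0.06 (adjusted p = 0.551, edgeR). It was the 1 of 9 accessory subunits of the matrix arm with a higher mean.

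Irisin alone against control mice asks what irisin did without MPTP. Of the 48 members, 36 were lower, where 50.5% of tested genes were, with a median of −0.09 (−5.85%). No member was called by edgeR (0.109% of tested genes were), DESeq2 or limma, and 7 (14.6%), 6 and 7 members had an unadjusted p under 0.05, where in edgeR 8.97% of tested genes did. Without irisin mouse 2 the median was −0.03.

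The assembly factor Ndufaf3 had 27.7, 23.2 and 22.8 CPM in control mice and 19.0, 20.3 and 21.6 CPM on irisin alone, without overlap, at −0.28 ± 0.10 (adjusted p = 0.498, edgeR). Ndufb7, of the far membrane arm, had 97.5, 83.3 and 74.4 CPM against 65.5, 66.5 and 77.8 CPM, with overlap, at −0.28 ± 0.10 (adjusted p = 0.506, edgeR). Ndufa4l2, known to be induced by low oxygen, had 4.6, 5.57 and 5.56 CPM against 4.13, 3.25 and 3.74 CPM, without overlap, at −0.50 ± 0.18 (adjusted p = 0.512, edgeR). Its relative Ndufa4 was at 0.01 ± 0.07. The core subunits ran from −0.22 for Ndufv2, with 238, 202 and 190 CPM in control and 172, 179 and 189 CPM on irisin alone, to 0.10 for Ndufs1. Ndufv2 did not overlap between the groups, although its highest mouse on irisin lay next to control mouse 3.

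MPTP-irisin against MPTP treated mice asks whether irisin given after MPTP altered the complex I genes. The median log2 fold change was −0.04 (−2.48%), with 36 of 48 members lower where 50.1% of tested genes were, and without MPTP-irisin mouse 1 it was 0.01. edgeR, with 0.00456% of tested genes called, DESeq2 and limma called no member, and each tool gave 1 member with an unadjusted p under 0.05, which in edgeR was 2.08% of members against 3.90% of tested genes. That member in edgeR was Ndufc1, a small membrane arm subunit, with 34.3, 33.0 and 31.8 CPM in MPTP treated and 25.1, 32.1 and 22.6 CPM in MPTP-irisin mice. The groups overlapped through 1 mouse, and the log2 fold change was −0.31 ± 0.13 (adjusted p = 1.0, edgeR). Ndufv1 had 101, 100 and 104 CPM in MPTP-irisin mice, all below the MPTP treated mice, at −0.15 ± 0.08, and Ndufs6b had 1.34, 1.34 and 1.12 CPM in MPTP treated and 1.80, 1.51 and 2.06 CPM in MPTP-irisin mice, at 0.50 ± 0.28 (adjusted p = 1.0 for both, edgeR). The other 6 core subunits lay between −0.10 for Ndufs8 and 0.03 for Ndufs1.

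MPTP-irisin mice differed most from control mice by the count of members with a small p. The median was −0.12 (−8.16%), with 40 of 48 members lower where 50.1% of tested genes were, and without MPTP-irisin mouse 1 it was −0.05. No member was called by edgeR (0.109% of tested genes were), DESeq2 or limma, and 11 (22.9%), 9 and 10 members had an unadjusted p under 0.05, where in edgeR 9.31% of tested genes did. Of the 11, 10 were lower. They comprised 4 accessory subunits of the matrix arm (Ndufa2, Ndufa5, Ndufa7 and Ndufs4, from −0.32 to −0.20), 3 of the membrane arm near it (Ndufa8, Ndufa13 and Ndufc1), 2 of the far membrane arm (Ndufb7 and Ndufb8), the assembly factor Ndufaf3, and Ndufs6b, which was higher. No core subunit was among them, and the median of the core subunits was −0.06, beside −0.20 for the accessory matrix arm and −0.21 for the membrane arm near it. These role medians were not tested against each other.

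Ndufa8 had 96.7, 102 and 108 CPM in MPTP-irisin mice, all below the control mice at 114 to 135 CPM, at −0.27 ± 0.08 (adjusted p = 0.388, edgeR). Ndufc1, with control mice at 39.3, 33.0 and 32.6 CPM, was at −0.39 ± 0.13 (adjusted p = 0.422, edgeR), and its MPTP-irisin mice all lay below them. Ndufb7 had 63.0, 72.9 and 70.0 CPM, below the control mice at 74.4 to 97.5 CPM, at −0.31 ± 0.10 (adjusted p = 0.426, edgeR). The 3 comparisons with control mice of this experiment share those mice, and Ndufa8 was at −0.22, −0.20 and −0.27 in MPTP treated mice, mice on irisin alone and MPTP-irisin mice. Ndufa13 was at −0.19, −0.16 and −0.21 in the same order.

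**Figure D3:**
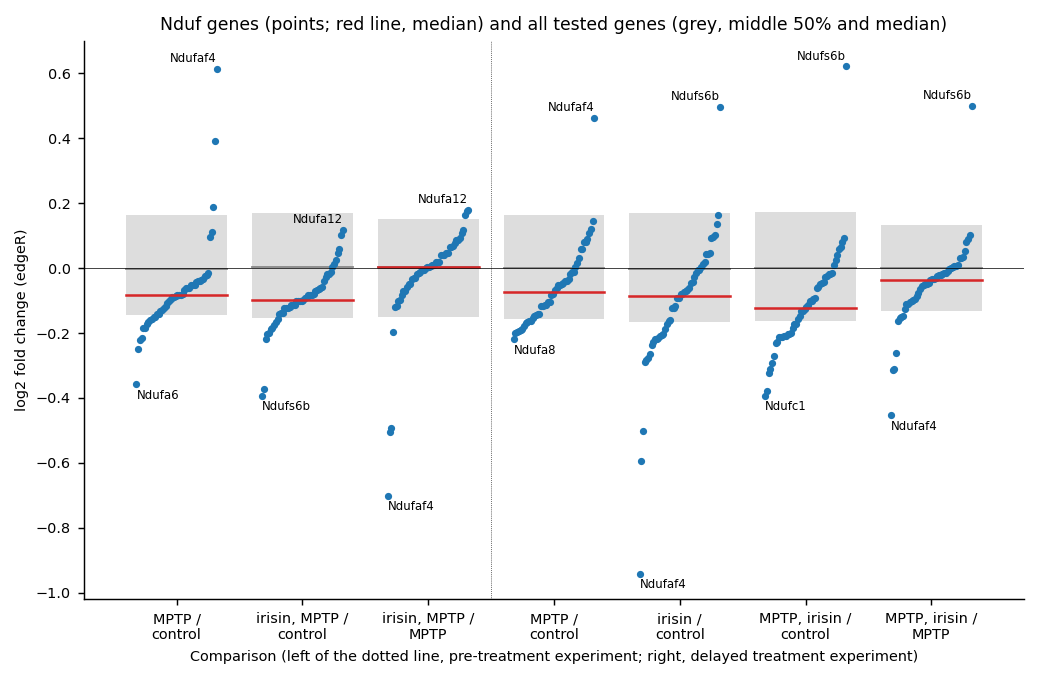
Log2 fold changes of the 48 tested members in the 7 comparisons, with a point per gene in order of size, a red line at the median of the members and a grey box between the quartiles of all tested genes; the dotted line parts the experiments. The medians lie between −0.12 and 0.00, and the points farthest from 0 include Ndufaf4, Ndufb5 and Ndufs6b.

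The interaction between irisin and MPTP in the delayed treatment experiment tests whether irisin acted differently with and without MPTP. No member was called by edgeR (0.0411% of tested genes were), DESeq2 or limma, and each gave 1 member with an unadjusted p under 0.05, which in edgeR was 2.08% of members, where 5.57% of tested genes did. In edgeR it was Ndufa9, which was 0.13 higher on irisin alone against control and 0.06 lower in MPTP-irisin against MPTP treated mice on the log2 scale, with an interaction of −0.20 ± 0.09 (adjusted p = 0.893, edgeR). The median interaction of the members was 0.05, with 20 of 48 (41.7%) below 0, where 49.5% of tested genes were, with a median of 0.00. It was 0.08 for the genes of complexes II to V, with 17 of 52 below 0. For mitochondrial ribosomal proteins it was 0.07, with 22 of 78 below 0.

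The level of the members as a whole varied between mice of 1 group as well as between groups (plot of the members' median in each mouse). The median of the members, relative to the control mean on the log2 scale, was −0.08, 0.03 and 0.05 in control mice of the pre-treatment experiment, −0.09, −0.08 and −0.11 in MPTP treated mice and −0.12, −0.07 and −0.12 in irisin-MPTP mice. All 3 MPTP treated mice were below the control mice, control mouse 1 being closest to them, and irisin-MPTP mice overlapped both. In the delayed treatment experiment the medians were 0.08, −0.01 and −0.09 in control mice, −0.09, −0.18 and 0.01 on irisin alone, −0.05, −0.08 and −0.05 in MPTP treated mice and −0.24, −0.09 and −0.06 in MPTP-irisin mice. The control mice spanned all MPTP treated mice there, and MPTP-irisin mouse 1 was the lowest of all.

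**Figure D4:**
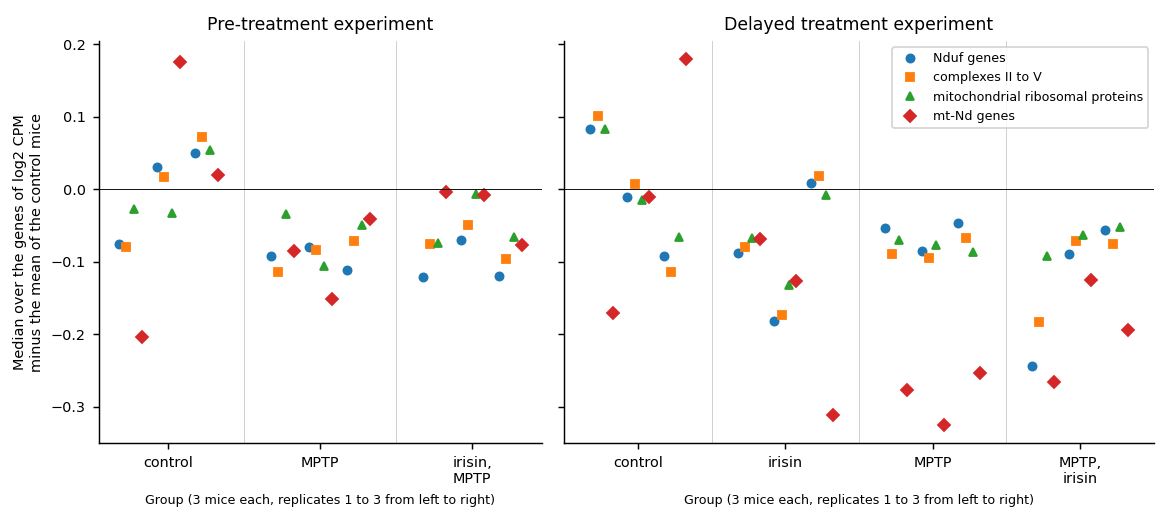
Median over the 48 tested members of the log2 ratio to the control mean, in each mouse of both experiments, beside the same median for complexes II to V, mitochondrial ribosomal proteins and the mt-Nd genes. Control mice of the delayed treatment experiment spread from −0.09 to 0.08 and the lowest mouse is MPTP-irisin mouse 1 at −0.24.

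Other nuclear genes of the respiratory chain and short genes had medians below 0 in both comparisons of MPTP treated with control mice, as the members did. For MPTP against control in the pre-treatment experiment the median log2 fold change was −0.10 for 52 genes of complexes II to V, −0.07 for 78 mitochondrial ribosomal proteins and −0.08 for 13 complex I assembly genes with other names, such as Timmdc1 and Acad9, beside −0.08 for the members. In the delayed treatment experiment these medians were −0.10, −0.09 and −0.04, beside −0.07 for the members. Genes of at most 1000 bases with at least 10 CPM had medians of −0.09 in both. Longer genes at that level had medians of 0.0009 and −0.002, with 49.7% and 50.7% of them lower. The members had implied lengths of 394 to 9118 bases, and most of them were over 1000 bases. For irisin-MPTP against control the medians were −0.08 for complexes II to V, −0.04 for mitochondrial ribosomal proteins and −0.09 for the short genes, beside −0.10 for the members. For MPTP-irisin against control they were −0.11, −0.08 and −0.08 in the same order, beside −0.12 for the members. An unadjusted p under 0.05 (edgeR) was reached there by 8 of 52 genes of complexes II to V and 7 of 78 mitochondrial ribosomal proteins, beside 11 of 48 members and 9.31% of tested genes. For irisin alone against control the medians were −0.07, −0.08 and −0.06, beside −0.09 for the members. For MPTP-irisin against MPTP treated mice they were −0.02, 0.03 and 0.02 in the same order, beside −0.04 for the members, so that the last 2 lists lay on the other side of 0. None of the 13 complex I assembly genes with other names passed an adjusted p of 0.05 in any comparison (edgeR). Among these 13, Ecsit alone had an unadjusted p under 0.05, in the interaction, where 5.57% of tested genes did. The part of transcript length in the members' medians was not tested.

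The mitochondrial genes of complex I, which encode the proton-pumping core of the membrane arm, had lower medians than the nuclear ones in MPTP treated mice of the delayed treatment experiment, a difference that was not tested. All 7 had lower means in MPTP treated than in control mice, with a median of −0.31, beside −0.07 for the nuclear members. The largest was mt-Nd6 at −0.54 ± 0.10 (adjusted p = 0.0885, edgeR), and mt-Nd4 was at −0.36 ± 0.07 (adjusted p = 0.122, edgeR). Irisin alone gave a median of −0.17 against control. MPTP-irisin mice had a median of 0.16 against MPTP treated mice and of −0.15 against control mice, with 7 of 7 lower than in control. In the pre-treatment experiment the median for MPTP against control was −0.10, again with 7 of 7 lower. The summed FPKM of the mitochondrial genes was 12.8 ± 2.23 times that of the members in control mice and 10.8 ± 0.260 times in MPTP treated mice of the delayed treatment experiment, 12 ± 1.26 times on irisin alone and 12.3 ± 0.497 times in MPTP-irisin mice. Control mice, at 10.8 to 15.2 times, and mice on irisin alone, at 10.6 to 12.9 times, overlapped the MPTP treated mice at 10.6 to 11.1 times. The MPTP-irisin mice, at 11.8 to 12.8 times, lay above the MPTP treated mice and within the control mice. In the pre-treatment experiment the ratio was 16.7 ± 1.83 in control mice, 16.7 ± 0.856 in MPTP treated mice and 17.5 ± 0.615 in irisin-MPTP mice, which overlapped. In the delayed treatment experiment all mitochondrial genes took 8.48 to 9.50% of counts in control mice and 8.04 to 8.71% on irisin alone. They took 7.65 to 7.80% in MPTP treated mice, the lowest there, and 7.87 to 8.68% in MPTP-irisin mice. This share also covers mitochondrial genes outside complex I, so the lower medians were not shown to be particular to complex I. In the pre-treatment experiment it was 10.6 to 12.9%, and the groups overlapped.

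A few members sat on separate levels that did not follow the groups (plot of 5 members by mouse). The assembly factor Ndufaf4 (ENSMUSG00000028261, chr4:24898083-24905001, plus strand) had 10.8, 50.4 and 10.9 CPM in control mice, 50.4, 10.4 and 49.6 CPM in MPTP treated mice and 46.4, 10.9 and 10.6 CPM in irisin-MPTP mice. The 5 low mice lay between 10.4 and 10.9 CPM and the 4 high ones between 46.4 and 50.4 CPM, a step of 4.24-fold with mice of every group on both sides. In the delayed treatment experiment it had 6.09, 35.4 and 7.42 CPM in control mice, 9.78, 7.18 and 8.48 CPM on irisin alone, 6.98, 30.4 and 29.9 CPM in MPTP treated mice and 9.49, 33.0 and 6.74 CPM in MPTP-irisin mice. The fold changes of Ndufaf4, such as 0.61 ± 0.85 for MPTP against control in the pre-treatment experiment, therefore rest on how many high mice a group held.

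Ndufb4c, a copy of the far membrane arm subunit gene Ndufb4, had 4 mice at 2.69 to 4.05 CPM and 5 at 6.94 to 14.7 CPM in the pre-treatment experiment, and 8 at 5.52 to 7.05 CPM and 4, one in each group, at 12.3 to 15.9 CPM in the delayed treatment experiment. Ndufa12, of the matrix arm, had 8 mice at 46.1 to 58.5 CPM and 4 at 88.4 to 102 CPM in the delayed treatment experiment. The high ones were control mice 1 and 3, MPTP treated mouse 2 and MPTP-irisin mouse 3, and none was on irisin alone. In the pre-treatment experiment the same gene ran from 55.5 to 77.2 CPM without such a step. Ndufa6, also of the matrix arm, had 91.3 CPM in control mouse 2 of the pre-treatment experiment and 50.1 to 57.3 CPM in the other 8 mice.

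Such steps, of at least 0.5 on the log2 scale between neighbouring mice, were seen in 3 of 48 members (6.25%) in each experiment, and in 16.7% and 14.6% of genes with a mean of at least 1 CPM. The median SD of a member over all mice was 0.101 in the pre-treatment and 0.132 in the delayed treatment experiment on the log2 scale, beside 0.187 and 0.177 for those genes.

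**Figure D5:**
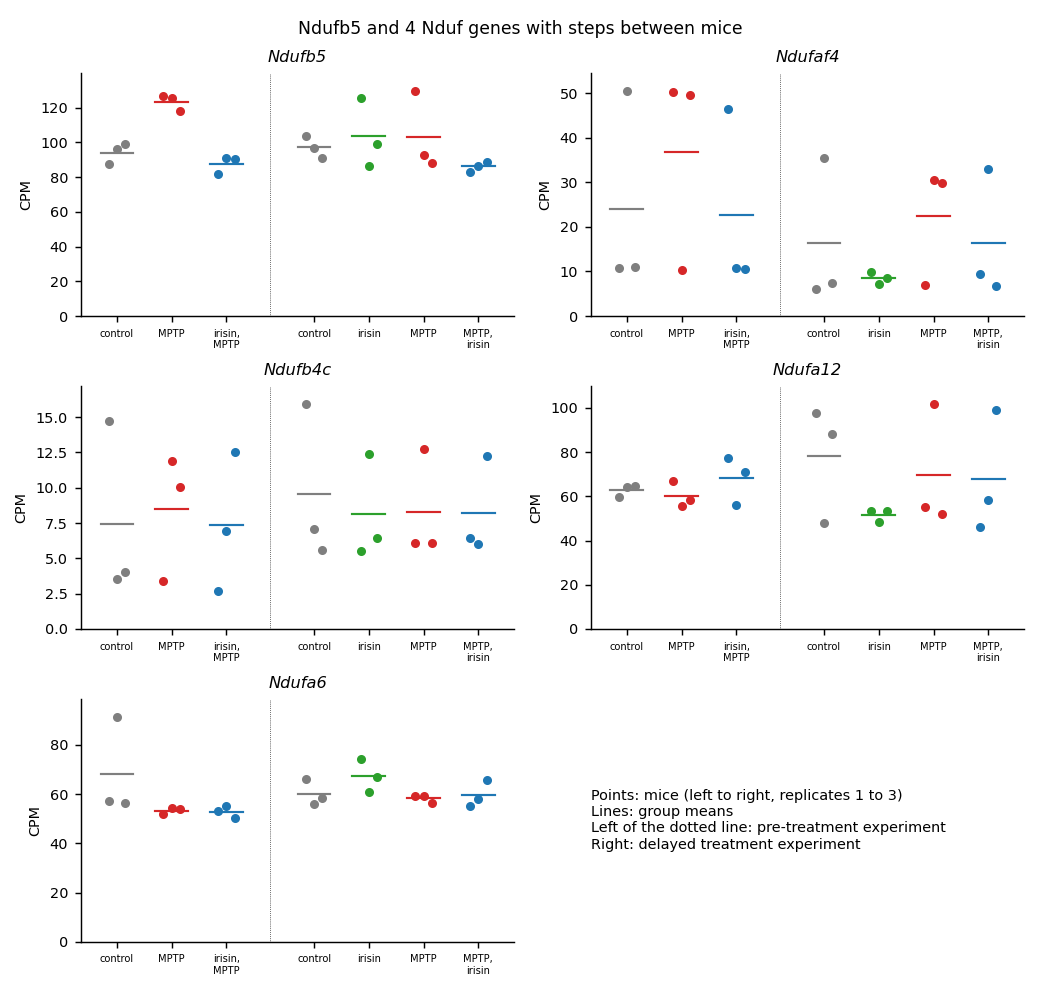
CPM of Ndufb5, Ndufaf4, Ndufb4c, Ndufa12 and Ndufa6 in each mouse, with group means as lines, the pre-treatment experiment left of the dotted line and the delayed treatment experiment right of it. Ndufaf4 falls on a low level of 10.4 to 10.9 CPM and a high level of 46.4 to 50.4 CPM in the pre-treatment experiment, with mice of each group on both.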

How the data were processed

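RNA-seq counts of 21 mice were analysed, 9 from the pre-treatment and 12 from the delayed treatment experiment, grouped by the labels. The authors counted reads with featureCounts and deposited raw counts and FPKM per gene and mouse. The submitters' processing notes name HISAT, StringTie, edgeR and the build mm9, while the coordinates in the tables are those of GRCm38, which are printed here. The use of strand and tool versions were not given in the sources used here. Total counts were 48.8 to 77.2 M per mouse, which limits the precision little beside the spread between mice.

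Counts were tested with edgeR 4.0.16 in R 4.3.3 (filterByExpr at its minimum count of 10 and total of 15, TMM, two-sided quasi-likelihood test, Benjamini-Hochberg over all 22641 or 21922 tested genes), with all groups of an experiment in 1 fit. The SE is the log2 fold change divided by the square root of F. DESeq2 1.42.0, median ratio scaling, no filter, the compared groups alone, a replicate block, limma 3.58.1 on log2(FPKM + 1) and each mouse left out were alternatives. Simulated data had changes in genes drawn from all tested genes. There 32 and 43 of 100 genes with 2-fold changes were recovered for the pre-treatment experiment and for the delayed one. Of those with 4-fold changes, 65 and 63 of 100 were recovered. No 2 mice of a group agreed within sampling noise (smallest chi-square per gene 39.7 over 21 pairs). CPM are per M reads with TMM factors. FPKM compare genes per length.

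The members, gene lists and tests were chosen with earlier results of these data known. Named were the 3 members with the smallest p in each of the 7 pairwise comparisons, the 1 with the smallest in the interaction, the 7 nuclear core subunits, the 2 highest and 2 lowest members, Ndufa4 and Ndufa4l2. Members on separate levels, other members with an unadjusted p under 0.05 and those with printed promoters were named after their values were seen. The values of 1 member are not reported here, though counts and medians over the members include it.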

Additional observations from a re-analysis of the deposited data

Results flagged for a closer look

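Ndufs6b was lower after irisin in the pre-treatment experiment and higher after irisin in the delayed treatment experiment, each against MPTP treated mice. Its log2 fold change was −0.50 in irisin-MPTP mice, where all 3 mice lay below the MPTP treated mice, and 0.50 in MPTP-irisin mice, where all 3 lay above them. The difference between the experiments was not tested, and neither value passed an adjusted p of 0.05 (edgeR). With 53 to 211 reads a mouse over both experiments, this copy of Ndufs6 is among the shallowest members.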

How the results depend on the processing

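No member passed the threshold in any comparison under any alternative except DESeq2 without a filter, which called 1 member, Ndufb5, for MPTP against control in the pre-treatment experiment (adjusted p = 0.00671) and 1, again Ndufb5, for irisin-MPTP against MPTP treated mice (adjusted p = 2.32e-05), where limma gave 0.441 and 0.0780 and the replicate block 0.908 and 0.272. The cause was not tested. Over 21 fits with 1 mouse left out, the count of members called by edgeR was 0 in each. The deviations of same-numbered mice of different groups correlated from −0.102 to 0.166 in the pre-treatment and from −0.0876 to 0.0527 in the delayed treatment experiment, so the numbers do not pair them. With the replicate block 0 members were called, and the medians were −0.08, 0.00 and −0.10 in the pre-treatment and −0.07, −0.09, −0.04 and −0.12 in the delayed treatment experiment. The medians of irisin-MPTP against MPTP (−0.02 to 0.01) and of MPTP-irisin against MPTP treated mice spanned 0 when mice were left out. An added alternative, chosen after seeing the data, left out Ndufb5 and the 4 members with steps between mice, and moved no median by more than the spread between mice. That spread was 0.0434 in the pre-treatment and 0.0824 in the delayed treatment experiment, near the size of several medians. A median hardly depends on so few members, so this alternative could scarcely have come out otherwise. With 3 mice a group, many changes of 2-fold and some of 4-fold were missed in the simulated data, and smaller ones were not simulated. The changed genes there were drawn from all tested genes, most of which lay below the median member in level. Those shares therefore do not give what would be missed among the members. The median standard error of a member for MPTP against control was 0.0791 in the pre-treatment and 0.0975 in the delayed treatment experiment. The members' median changes were of about that size, so the counts of 0 do not show that the members did not differ.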
